A study of Homo sapiens with 8 samples.

Results

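The genes described here belong to the machinery that keeps proteins folded: 38 genes were listed by name, 24 of the endoplasmic reticulum's unfolded protein response and 14 of the heat shock system of the cytosol and mitochondria. A gene was measured where a probe set on the array carried that gene's symbol and no other, and the probe set with the highest mean over the 8 arrays stood for it. By this rule 36 of the 38 were measured, 23 of the reticulum class and 13 of the heat shock class, among 19775 genes in all. SYVN1 and AHSA1 had no such probe set and were not analysed here. The cells were CCRF-CEM-C7-14, an established line of human T-cell leukaemia known to be sensitive to glucocorticoids. Every culture, the untreated ones included, received fresh medium with serum stripped on charcoal, a step that removes steroids. Total RNA came from untreated cells at 0 h (3 arrays) and from cells in 1 µM dexamethasone, a synthetic glucocorticoid, for 2 h (3 arrays) or 10 h (2 arrays). Replicates are labelled biological without more detail on the cultures, and p-values therefore rest on the spread among these arrays. Vehicle controls matched in time were not used here, and effects of dexamethasone cannot be told apart from those of hours in stripped medium.

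Proteins that enter the secretory pathway fold in the lumen of the endoplasmic reticulum with the help of the chaperones HSPA5 (BiP) and HSP90B1 (GRP94), the lectins CALR and CANX, and the disulfide isomerases. When unfolded protein accumulates there, the membrane sensors ERN1 (IRE1α), EIF2AK3 (PERK) and ATF6 raise chaperone and degradation genes and slow translation, ERN1 by splicing the mRNA of the transcription factor XBP1. In the cytosol, HSF1 drives the HSP70, HSP40 and small heat shock proteins when proteins misfold, and mitochondria fold their imported proteins with HSPA9 and the HSPD1 and HSPE1 chaperonin. Splicing of XBP1, phosphorylation of EIF2AK3 and cleavage of ATF6 are not read by an expression array.

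The promoters of some of these genes carry DNA elements through which the stress responses are known to act. The matches are shown so that the expression values can be read beside them. RefSeq promoter windows of build GRCh38.p14, from 250 bases before to 50 bases after a gene's start, matched 34 of the 36 measured members. Motifs were searched on both strands, with every fixed base required to match. The reticulum stress element, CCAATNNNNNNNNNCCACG, is bound by ATF6 together with the CCAAT-binding factor NF-Y. It was found in 7 of 22 reticulum members with a window and in 0 of 12 heat shock members. Counted by gene in the same way, 0.0916% of all 27305 genes with a window held it (0.0769% of all 35116 windows). The element was described from promoters of this kind, HSPA5 among them, so this count is a description and no independent evidence. The sites follow with 6 flanking bases on each side where the window allows, 5′ to 3′ on the strand of the gene, with the fixed bases of the motif in capitals. HSP90B1 has a pair of sites, and sites in reverse orientation begin with CGTGG.
HSPA5: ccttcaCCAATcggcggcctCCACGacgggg
HSP90B1: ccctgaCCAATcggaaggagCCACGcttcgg
HSP90B1: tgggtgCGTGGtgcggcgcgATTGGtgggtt
CALR: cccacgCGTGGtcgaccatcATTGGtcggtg
CANX: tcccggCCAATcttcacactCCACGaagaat
PDIA6: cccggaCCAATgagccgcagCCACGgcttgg
XBP1: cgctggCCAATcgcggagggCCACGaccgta
CRELD2: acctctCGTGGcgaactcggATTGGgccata
The shown HSPA5 stretch is chr9:125241385-125241415 on the minus strand, with the motif at -66 to -48 from the start of the gene. Those of HSP90B1 are chr12:103930210-103930240 and chr12:103930315-103930345, both on the plus strand. CALR lies at chr19:12938378-12938408 and CANX at chr5:179698772-179698802, also on the plus strand. PDIA6 lies at chr2:10812847-10812877 and XBP1 at chr22:28800597-28800627, both on the minus strand, and CRELD2 at chr22:49918548-49918578 on the plus strand. TGACGTGG, a site bound by XBP1 and ATF6, was found in HYOU1 alone of the members, at chr11:119057380-119057399 on the minus strand. Of all genes with a window 0.927% held it (0.729% of windows). TGATGNAA, a site bound by ATF4 with a C/EBP partner, was found in HERPUD1 alone of the members, at chr16:56931960-56931979 on the plus strand. Of all genes with a window 4.46% held it (3.62% of windows).
HYOU1: gccccgTGACGTGGtccaat
HERPUD1: ggcgggTTgCATCAgcccgt

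The heat shock element bound by HSF1, searched as GAANNTTCNNGAA or TTCNNGAANNTTC, was found in 4 of 12 heat shock members and in 0 of 22 reticulum members. Of all genes with a window 0.608% held it (0.49% of windows). The members were listed as heat shock genes, so this count too is a description and no independent evidence. The units of the element are capitalised in the sites below, and the CHORDC1 site holds 5 alternating units in a row.
HSPD1: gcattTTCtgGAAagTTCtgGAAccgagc
DNAJA1: cgggcgGAActTTCcaGAAcgctcg
DNAJB6: agccgaGAAccTTCgcGAAggtggg
CHORDC1: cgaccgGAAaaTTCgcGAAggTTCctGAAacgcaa
These lie at chr2:197500062-197500090 on the minus strand for HSPD1, chr9:33025270-33025294 on the plus strand for DNAJA1, chr7:157336867-157336891 on the plus strand for DNAJB6 and chr11:90223081-90223115 on the minus strand for CHORDC1. The DNAJA1 match starts 4 bases into the transcribed part. HSPD1 and HSPE1 encode the partners of the mitochondrial chaperonin and are transcribed away from each other, from starts 105 bases apart. The HSPD1 window at that start overlaps the HSPE1 window by 204 bases. The HSPD1 heat shock element shown above lies in the window of another HSPD1 start, 539 bases from that of HSPE1. That window overlaps the HSPE1 window by 0 bases. Of all genes with a window 0.48% held a palindromic glucocorticoid response element, GNACANNNTGTNC (0.39% of all windows). It was found in 0 of the 34 members with a window. The letters are simply not in these windows, which leave out distal elements.

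Across the 8 arrays, the medians of all probe sets lay between 4.68 and 5.01 on the log2 scale. The 3 lowest medians belonged to 0 h replicate 2, 2 h replicate 3 and 10 h replicate 1, 1 array of each time. Between these 3 arrays and the remaining 5, the difference had opposite signs for 18 of 36 members at 2 h against 0 h, for 14 at 10 h against 0 h and for 16 at 10 h against 2 h. Both values are given below for some of the members described. As a check on the treatment, the receptor targets TSC22D3 and FKBP5 rose by 4.30 and 2.16 log2 units at 10 h (limma, Benjamini-Hochberg adjusted p over all genes 7.22e-09 and 3.67e-05). The TSC22D3 value rests on its brightest probe set and was -0.16 on the brightest one without a suffix s, x or a in its name. Of 13 T-cell markers 12 were above the highest negative control value, 4.73, with CD3D the highest at a mean of 13.01. Markers of other cells were not all at background. Above it were 4 of 5 measured B-cell, 2 of 5 plasma cell, 1 of 5 myeloid and 2 of 4 natural killer cell markers. So were 1 of 2 erythroid and 5 of 6 epithelial and stromal markers. CD79A (8.78), MZB1 (9.75) and EPCAM (8.56) were the highest of their lists. MS4A1, S100A8 and KLRF1, the lowest of theirs, were below background. All 36 chosen probe sets of the members were above the negative controls.

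No member of either class passed the test at any time. The count of members called at an adjusted p below 0.05 (limma, all 8 arrays in a single fit, Benjamini-Hochberg over all genes) was 0 of 36 at 2 h against 0 h, where 0.0202% of all genes were called. It was 0 of 36 at 10 h against 0 h, where 0.354% were called, and 0 of 36 at 10 h against 2 h, where 0.167% were called. A moderated F test for any change with time also called 0 members, against 0.283% of all genes. The lowest adjusted p of any member was 0.730, for DNAJB4 at 10 h against 0 h. The count stayed at 0 under each of 20 other settings of the same fit, where the lowest adjusted p of any member was 0.0653, again for DNAJB4 at 10 h against 0 h. Members are therefore described below by their levels and intervals, and "higher" or "lower" states a difference of means and not a tested change. In bulk RNA, fewer cells of a kind and less RNA per cell cannot be told apart.

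At an unadjusted p below 0.05, 0 of 36 members differed at 2 h against 0 h, against 0.946% of all genes. At 10 h against 0 h there were 6, against 3.44% of all genes: ERN1, DNAJB4, BAG3, HSF1 and HSPB1 were higher and MANF was lower. At 10 h against 2 h there were 4, against 3.15% of all genes: BAG3, DNAJB4 and HERPUD1 were higher and MANF was lower. These counts leaned on single arrays. Without 0 h replicate 3 the count at 10 h against 0 h was 3, of which 3 were higher. It was 5 or 6 without any other 0 h or 2 h array. For 10 h against 2 h the count was 1 without 2 h replicate 3, and 4 without any other 0 h or 2 h array. Leaving out 2 h replicate 3 gave 2 members at 2 h against 0 h, 1 of them higher. Without 10 h replicate 2 only 1 array was left at 10 h. ERN1, DNAJB4, BAG3, HSF1 and HSPB1 then differed from 0 h by 0.70, 0.40, 0.42, 0.50 and 0.25, and MANF by -0.71. Without 10 h replicate 1 these differences were 1.00, 1.04, 0.74, 0.62, 0.73 and -0.32.

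The arrays of 5 members at 10 h all lay above those at 0 h (BAG3, ERN1, HSF1, HSPB1 and SEC61B), and 6.56% of all genes did the same. The arrays of 4 members at 10 h all lay below those at 0 h (CHORDC1, HSPA5, MANF and PDIA6), and 6.51% of all genes did the same. At 2 h against 0 h the arrays overlapped for every member on the chosen probe sets, while those of 4.04% of all genes did not. Most large changes can be bounded on these probe sets. The 95% interval of the difference lay within 1 log2 unit of 0, that is within 2-fold, for 36 of 36 members at 2 h. The same held for 99.3% of all genes. At 10 h the interval lay within these bounds for 29 of 36, against 96.9% of all genes. The 7 members for which a 2-fold difference at 10 h lies inside the interval were BAG3, DNAJB4, ERN1, HSF1, HSPA5, MANF and PDIA3. The bound does not cover every probe set. On another CALR set the difference was 0.99 (95% interval 0.20 to 1.78) at 2 h and 0.97 (0.09 to 1.86) at 10 h.

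**Figure D1:**
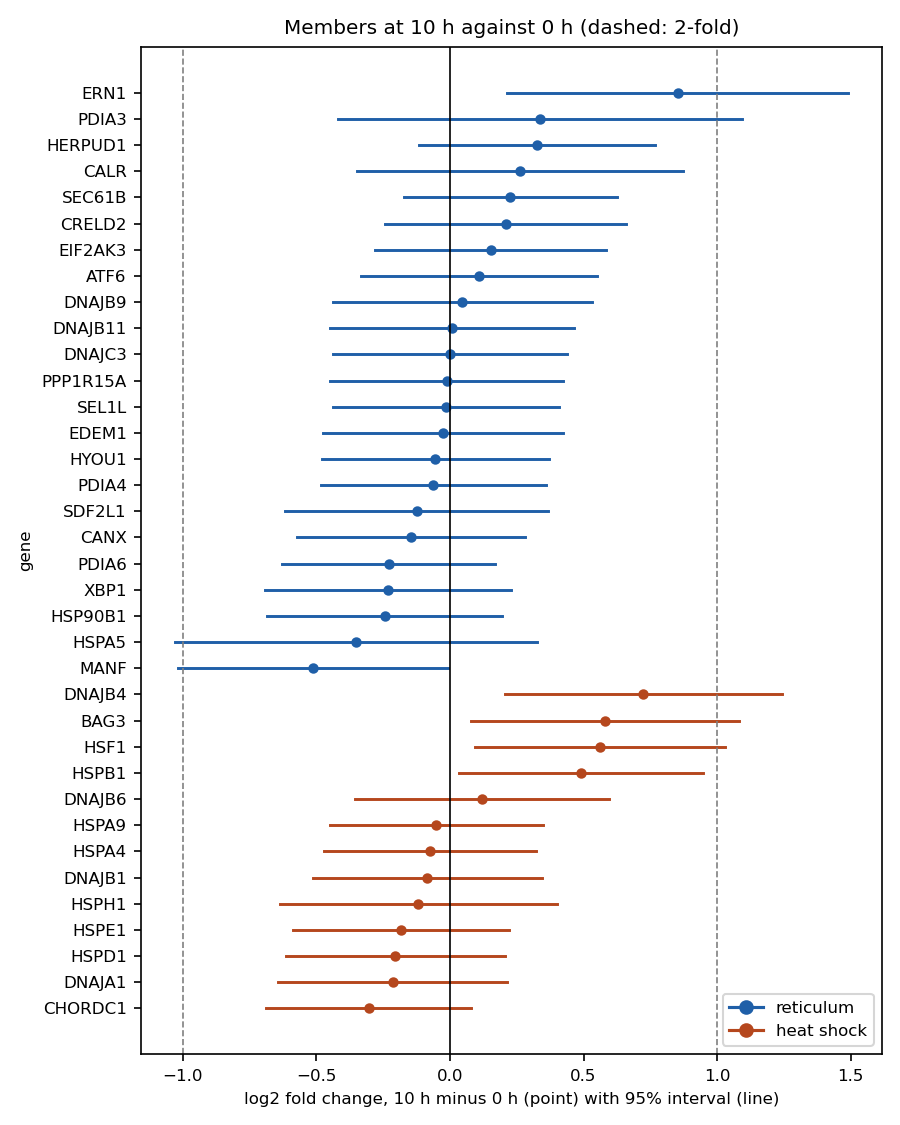
Log2 fold change at 10 h against 0 h (x axis; point, difference of means; line, 95% interval from limma) for the 36 measured members (y axis), reticulum in blue and heat shock in red; dashed lines mark 2-fold. ERN1 is highest at 0.85 and MANF lowest at -0.51, and most intervals cross 0.

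The reticulum members as a class had a median difference of 0.09 log2 units at 2 h, with 19 of 23 above 0, and of -0.01 at 10 h, with 11 of 23 above 0. Over all 19775 genes the medians were 0.02, with 11006 above 0, and -0.02, with 8827 above 0. Only 13068 of the 19775 had a mean above the negative controls, as all members did. With the dim genes left out the medians over all genes were 0.04 at 2 h and -0.01 at 10 h. From 2 h to 10 h the reticulum median was -0.10, with 6 of 23 above 0, where all genes had -0.03 and 8410 above 0. The heat shock members had medians of 0.04 at 2 h (9 of 13 above 0), -0.07 at 10 h (5 of 13) and -0.14 at 10 h against 2 h (6 of 13). Their mean at 10 h, 0.10, had the other sign from their median: DNAJB4, BAG3, HSF1 and HSPB1 stood between 0.49 and 0.72 and 8 of 13 were below 0. The median standard error of a member's difference was 0.19 at 2 h and 0.21 at 10 h.

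**Figure D2:**
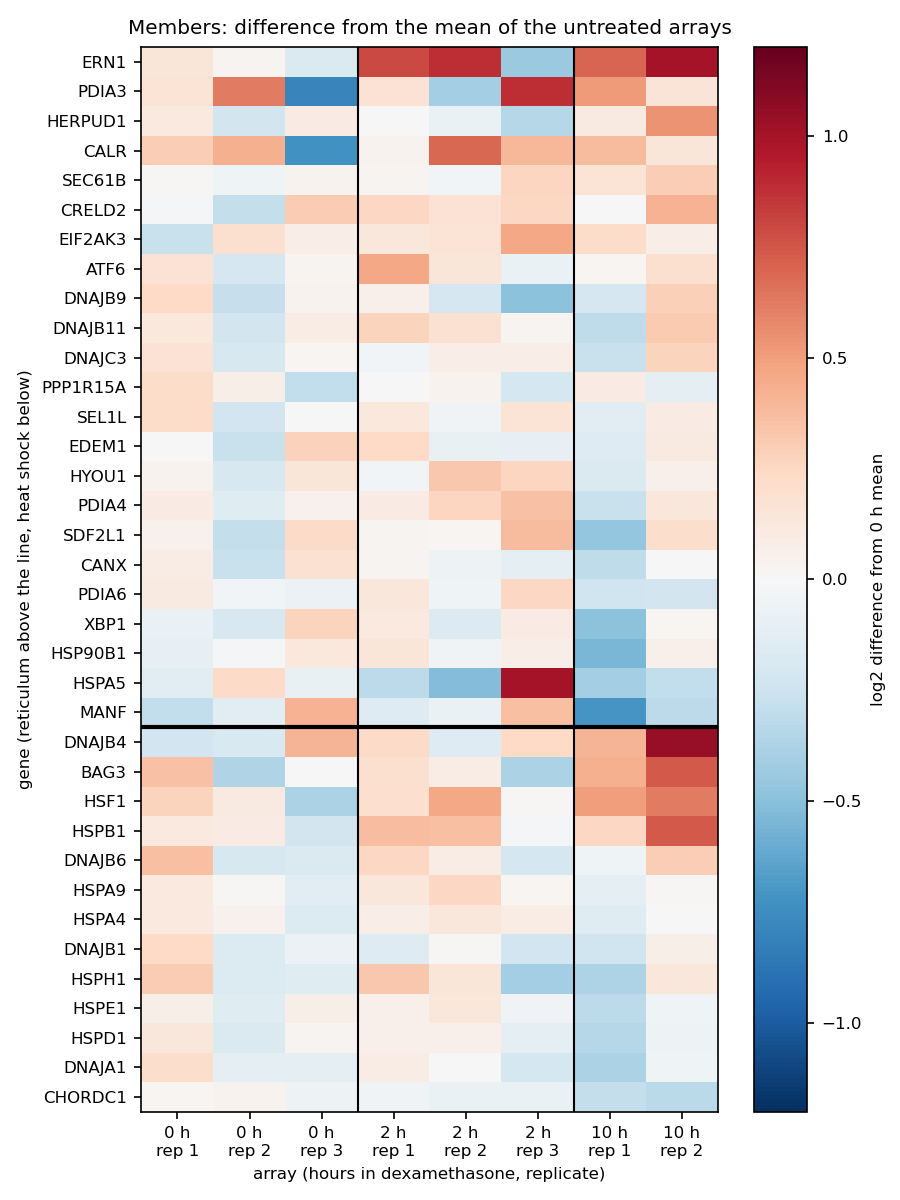
Log2 difference of each member (rows; reticulum above the line, heat shock below, ordered by the 10 h difference) from the mean of its 3 untreated arrays, on each of the 8 arrays (columns). Red is higher and blue is lower; HSPA5 and ERN1 stand out in opposite directions in the third 2 h array, and the 10 h arrays differ from each other across much of the panel.

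The luminal chaperones, which bind unfolded chains in the reticulum, were spread around 0: at 10 h against 0 h, 3 of 7 were above 0 and their median was -0.06. HSPA5, the HSP70 of the lumen and the usual readout of reticulum stress, was at 9.24, 9.61 and 9.29 at 0 h, at 9.06, 8.86 and 10.38 at 2 h, and at 8.98 and 9.08 at 10 h. Both 10 h arrays lay below every untreated array, and 1 of the 2 h arrays, replicate 3, stood 1.41 log2 units above the mean of the other two. The difference at 10 h against 0 h was -0.35 ± 0.32 (standard error; 95% interval -1.03 to 0.33), and at 2 h against 0 h it was 0.05 ± 0.29. The 2 h difference was 0.77 within the low-median arrays and -0.30 without them. HSP90B1, the HSP90 of the lumen, was at 8.84, 8.92 and 9.07 at 0 h, at 9.09, 8.90 and 9.02 at 2 h, and at 8.40 and 9.0 at 10 h. Here the first 10 h array was the lowest of the 8 and the second lay among the untreated arrays, so the groups overlapped (difference -0.24 ± 0.21). Within the low-median arrays it was -0.52, and in the remaining 5 it was 0.05; without 10 h replicate 1 it was 0.06. DNAJB9, a J-domain cochaperone of HSPA5 and a target of XBP1, was at 9.29, 8.78 and 9.10 at 0 h, at 9.12, 8.86 and 8.56 at 2 h, and at 8.86 and 9.35 at 10 h. All 3 times overlapped, and the difference at 10 h against 0 h was 0.05 ± 0.23. The remaining luminal chaperones, the J-domain proteins DNAJB11 and DNAJC3, their partner SDF2L1 and the large HSP70 HYOU1, had 10 h differences between -0.13 and 0.01.

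The lectin chaperones CALR and CANX hold glycoproteins for folding, and PDIA3 is the disulfide isomerase that works with them. PDIA3 was at 10.34, 10.80 and 9.38 at 0 h, at 10.34, 9.76 and 11.06 at 2 h, and at 10.69 and 10.33 at 10 h. The spread within a time was wide, with SDs of 0.72 at 0 h and 0.65 at 2 h, and the groups overlapped; its difference at 10 h of 0.34 ± 0.36 was within that error. It was -0.06 without 0 h replicate 3, and -0.11 within and 0.47 without the low-median arrays. CALR, named after its values were seen, was at 8.74, 8.87 and 7.71 at 0 h, at 8.48, 9.13 and 8.84 at 2 h, and at 8.82 and 8.59 at 10 h. The third untreated array was the lowest of the 8, and the difference at 10 h was 0.26 ± 0.29. Without that array it was -0.10, and it was -0.05 within and 0.36 without the low-median arrays. CANX differed by -0.15 ± 0.20. The other disulfide isomerases, PDIA4 and PDIA6, had differences of -0.06 and -0.23 at 10 h. PDIA6 was at 10.76, 10.62 and 10.58 at 0 h, at 10.79, 10.60 and 10.90 at 2 h, and at 10.42 and 10.43 at 10 h, so both 10 h arrays lay below all 6 others, by a difference from 0 h with a 95% interval of -0.63 to 0.17.

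MANF and CRELD2 encode reticulum proteins that are secreted under stress and are known targets of the response. MANF had the lowest 10 h difference of all members. It was at 8.88, 9.05 and 9.59 at 0 h, at 9.02, 9.09 and 9.53 at 2 h, and at 8.46 and 8.85 at 10 h. The 10 h arrays were the lowest of the 8, although the second lay just under the lowest untreated array. The difference from 0 h was -0.51 ± 0.24 (95% interval -1.02 to -0.01; limma unadjusted p 0.0477, adjusted p 1.00), and from 2 h it was -0.55 ± 0.24. The difference from 0 h was -0.30 without 0 h replicate 3 and -0.32 without 10 h replicate 1, and that from 2 h was -0.36 without 10 h replicate 1. CRELD2 differed by 0.21 ± 0.21 at 10 h, by 0.06 without 0 h replicate 2, and was not above 0 without 10 h replicate 2.

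Genes of degradation and translocation were mixed. HERPUD1, a membrane protein that recruits the ubiquitin machinery for reticulum-associated degradation, was at 9.54, 9.21 and 9.52 at 0 h, at 9.42, 9.34 and 9.08 at 2 h, and at 9.53 and 9.96 at 10 h. Each 10 h array lay above all 2 h arrays, and 1 of them lay among the untreated arrays. Its difference was 0.33 ± 0.21 from 0 h and 0.47 ± 0.21 from 2 h (95% interval 0.03 to 0.91; limma unadjusted p 0.0394, adjusted p 1.00). Without 10 h replicate 2 these were 0.11 and 0.25, and without 0 h replicate 2 the first was 0.22. SEC61B, a subunit of the translocation channel, was at 10.92, 10.85 and 10.94 at 0 h, at 10.94, 10.87 and 11.16 at 2 h, and at 11.06 and 11.19 at 10 h. Its 10 h arrays did not overlap the untreated ones, and the difference was 0.23 ± 0.19. SEL1L and EDEM1, which act in the recognition and retrotranslocation of misfolded glycoproteins, differed by -0.02 and -0.03.

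Of the sensors and effectors, ERN1 had the highest 10 h difference of all members. It was at 6.28, 6.17 and 5.97 at 0 h, at 6.93, 7.03 and 5.70 at 2 h, and at 6.84 and 7.14 at 10 h. On the chosen probe set both 10 h arrays, and the first 2 at 2 h, lay above every untreated array. There 2 h replicate 3 was the lowest of the 8, unlike on a second probe set given below. The difference at 10 h was 0.85 ± 0.30, or 1.80-fold (95% interval 0.21 to 1.49 in log2; limma unadjusted p 0.012, adjusted p 0.885). At 2 h it was 0.41 ± 0.27, or -0.48 in the low-median arrays alone and 0.85 in the remaining 5. The other sensors had smaller differences. EIF2AK3, the kinase that slows translation, was at 7.12, 7.58 and 7.47 at 0 h, at 7.53, 7.56 and 7.86 at 2 h, and at 7.62 and 7.48 at 10 h, which overlapped throughout (10 h difference 0.15 ± 0.21). ATF6, the sensor cleaved to release a transcription factor, was at 8.63, 8.26 and 8.49 at 0 h, at 8.92, 8.61 and 8.38 at 2 h, and at 8.49 and 8.65 at 10 h (difference 0.11 ± 0.21), with all times overlapping. XBP1, whose mRNA ERN1 splices, was at 8.57, 8.46 and 8.92 at 0 h, at 8.77, 8.49 and 8.75 at 2 h, and at 8.16 and 8.68 at 10 h. Here too the first 10 h array was the lowest and the second lay among the untreated ones (difference -0.23 ± 0.22, or 0.03 without 10 h replicate 1). PPP1R15A (GADD34), which restores translation after EIF2AK3 has acted, was at 6.08, 5.93 and 5.56 at 0 h, at 5.86, 5.90 and 5.65 at 2 h, and at 5.95 and 5.74 at 10 h. The groups overlapped and the difference was -0.01 ± 0.21.

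The cytosolic heat shock members lay on both sides of 0 at 10 h, 5 of 10 above it. HSF1, the transcription factor of the response, was at 8.57, 8.41 and 7.92 at 0 h, at 8.50, 8.76 and 8.31 at 2 h, and at 8.80 and 8.92 at 10 h. The 10 h arrays were the highest of the 8, and the third untreated array was the lowest. The difference from 0 h was 0.56 ± 0.22 (95% interval 0.09 to 1.03; limma unadjusted p 0.0219, adjusted p 1.00), and 0.37 without 0 h replicate 3. BAG3, a nucleotide exchange factor of HSP70 and a known HSF1 target, was at 8.06, 7.35 and 7.71 at 0 h, at 7.90, 7.79 and 7.33 at 2 h, and at 8.13 and 8.44 at 10 h. Its 10 h arrays also lay above all 6 others, the first of them just above the highest untreated array. The differences were 0.58 ± 0.24 from 0 h (95% interval 0.08 to 1.08) and 0.61 ± 0.24 from 2 h. DNAJB4, a J-domain cochaperone of HSP70, was at 5.27, 5.31 and 5.91 at 0 h, at 5.73, 5.34 and 5.74 at 2 h, and at 5.90 and 6.54 at 10 h. Here 1 of the 10 h arrays was higher than all others, and the other lay just below the third untreated array. Its difference was 0.72 ± 0.25, or 1.65-fold (95% interval 0.21 to 1.24 in log2; limma unadjusted p 0.00897, adjusted p 0.730). It was 0.40 without 10 h replicate 2 and 1.04 without 10 h replicate 1. HSPB1 (HSP27), a small heat shock protein, was at 7.94, 7.92 and 7.61 at 0 h, at 8.20, 8.18 and 7.80 at 2 h, and at 8.07 and 8.55 at 10 h. The 10 h arrays were above the untreated ones, and the difference was 0.49 ± 0.22 (95% interval 0.03 to 0.95), or 0.25 without 10 h replicate 2. Within the 3 arrays with the lowest medians it was 0.15, and without them 0.78.

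Further cytosolic chaperones and cochaperones follow. HSPH1 (HSP110), an exchange factor and disaggregase partner of HSP70, was at 10.36, 9.89 and 9.91 at 0 h, at 10.38, 10.20 and 9.65 at 2 h, and at 9.68 and 10.19 at 10 h. DNAJB1 (HSP40), a classical heat shock gene, was at 9.45, 9.05 and 9.14 at 0 h, at 9.06, 9.22 and 8.98 at 2 h, and at 8.97 and 9.28 at 10 h. DNAJA1, a further J-domain cochaperone, was at 11.42, 11.09 and 11.10 at 0 h, at 11.30, 11.20 and 11.00 at 2 h, and at 10.82 and 11.16 at 10 h. The times overlapped for all 3 genes, with 10 h differences of -0.12 ± 0.25 for HSPH1, -0.08 ± 0.20 for DNAJB1 and -0.22 ± 0.20 for DNAJA1. CHORDC1, an HSP90 cochaperone, varied little within a time: it was at 9.33, 9.34 and 9.24 at 0 h, at 9.26, 9.22 and 9.22 at 2 h, and at 9.01 and 8.98 at 10 h. Its 10 h arrays lay below all 6 others. Its difference was -0.30 ± 0.18 (95% interval -0.69 to 0.08; limma adjusted p 1.00), where the error is that of limma's shared estimate and exceeds the gene's own SDs of 0.06 at 0 h and 0.02 at 10 h. HSPA4, an HSP110-type exchange factor, differed by -0.07, and DNAJB6, a J-domain protein that holds back aggregation, by 0.12.

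The mitochondrial chaperones were lower at 10 h by small amounts that did not pass the test. HSPD1 (HSP60), which forms the chaperonin barrel, was at 13.16, 12.85 and 13.05 at 0 h, at 13.08, 13.08 and 12.91 at 2 h, and at 12.68 and 12.96 at 10 h. The groups overlapped (difference -0.20 ± 0.19; 95% interval -0.62 to 0.21). HSPE1 (HSP10), the lid of that barrel, differed by -0.18 ± 0.19, and HSPA9 (mortalin), which pulls proteins into the matrix, by -0.05 ± 0.19. Without 10 h replicate 1 the differences of HSPD1, HSPE1 and HSPA9 were -0.07, -0.05 and 0.01. Without 10 h replicate 2 they were -0.34, -0.32 and -0.12.

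**Figure D3:**
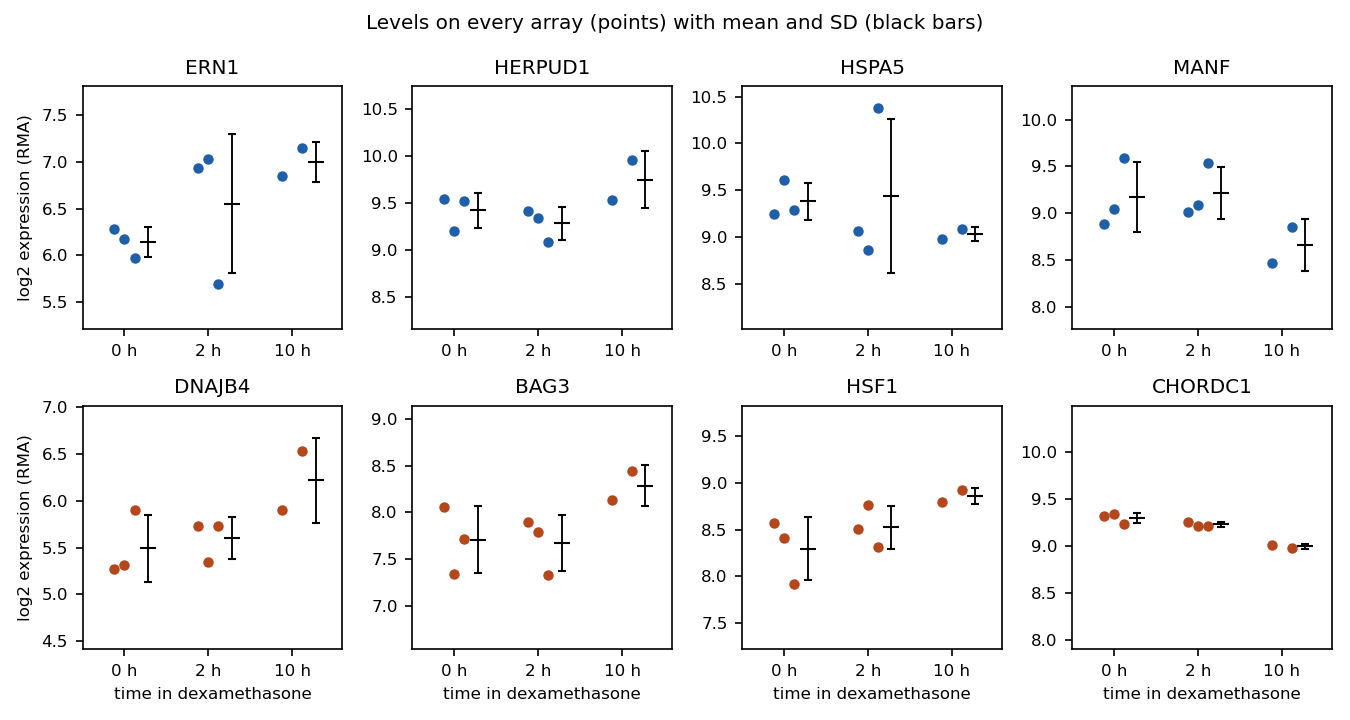
Log2 expression (RMA, y axis) of 8 members at 0 h, 2 h and 10 h (x axis); points are arrays, black bars the mean and SD (n = 3, 3 and 2), blue the reticulum and red the heat shock class, and every panel spans the same log2 range around its own mean. In BAG3, HSF1 and ERN1 both 10 h arrays sit above all untreated arrays, in HSPA5, MANF and CHORDC1 below, and in DNAJB4 and HERPUD1 the times overlap at 0 h and 10 h.

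Promoter matches and expression were set side by side as a description. Of the 7 members with a reticulum stress element, HSPA5, HSP90B1, CANX, PDIA6 and XBP1 were below 0 at 10 h (-0.35, -0.24, -0.15, -0.23 and -0.23), and CALR and CRELD2 were above it (0.26 and 0.21). These signs rest in part on single arrays: CALR was at -0.10 without 0 h replicate 3, CRELD2 was not above 0 without 10 h replicate 2, and HSP90B1, XBP1 and CANX were at 0.06, 0.03 and 0.01 without 10 h replicate 1. Of the 4 with a heat shock element, HSPD1, DNAJA1 and CHORDC1 were below 0 (-0.20, -0.22 and -0.30) and DNAJB6 was above it (0.12, or -0.06 without 10 h replicate 2). Without 10 h replicate 1 HSPD1 and DNAJA1 were at -0.07 and -0.05, and a second DNAJA1 probe set gave 0.03. BAG3, DNAJB4 and HSPB1, the high heat shock members with a window, held no exact match in these 300 bases. Imperfect elements were not searched.

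The spread within a time was read against the arrays with low medians. In 13 of 36 members the low-median array was lower than the mean of the others at all 3 times, as in 49.8% of all genes. CALR, PDIA3 and EIF2AK3 were higher in it at all 3 times, as were 3.72% of all genes. On the chosen probe sets of ERN1 and HSPA5, 2 h replicate 3 departed in opposite directions, by -1.29 and 1.41 from the mean of the other 2 h arrays. The mean of the reticulum class relative to its untreated mean was -0.11 in 10 h replicate 1 and 0.15 in 10 h replicate 2, that of the heat shock class -0.05 and 0.24, and that of all genes -0.09 and 0.06. For the 10 h difference from 0 h, the values within the low-median arrays and without them had the same sign for ERN1 (0.67 and 1.02), DNAJB4 (0.59 and 0.95), BAG3 (0.78 and 0.56), HSF1 (0.39 and 0.68), MANF (-0.58 and -0.38), HSPA5 (-0.63 and -0.18) and CHORDC1 (-0.33 and -0.30). The part of array quality in these values was not tested.

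Members were read by 85 probe sets in all, 76 of them above the negative controls, and 26 members had more than 1. In the comparison of 10 h with 0 h, 0 of the 85 were called by limma over all probe sets and 8 had an unadjusted p below 0.05. Of all 41091 probe sets tested, 0.333% were called and 2.99% had an unadjusted p below 0.05. Of 21 members with several probe sets above background, all of them had the same sign in 11 at 2 h against 0 h. At 10 h against 0 h they did so in 14, and the values that follow are of that comparison unless stated. For HSF1 the second probe set gave 0.69 beside 0.56. For ERN1 the other sets gave 0.54 and 0.03 beside 0.85, and at 2 h against 0 h 0.45 and -0.08 beside 0.41. On the set with 0.45, all 2 h arrays (6.59, 6.61 and 6.24) lay above the untreated ones (6.18, 6.18 and 5.74). For HSPA5 the second gave -0.20 beside -0.35, and for HSP90B1 -0.47 beside -0.24. PDIA3 differed in sign among its sets, with -0.06 and -0.16 beside 0.34. CALR gave -0.29, 0.26 and 0.97, and the third untreated array was low on the sets with the 2 higher values (7.71 and 6.41). The second set of HERPUD1 gave 0.05, and that of DNAJB4, which did not exceed the negative controls, gave 0.04. MANF, BAG3 and HSPB1 were read by 1 probe set each. Another 6 probe sets carry a member's symbol among several and were not used.

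**Figure D4:**
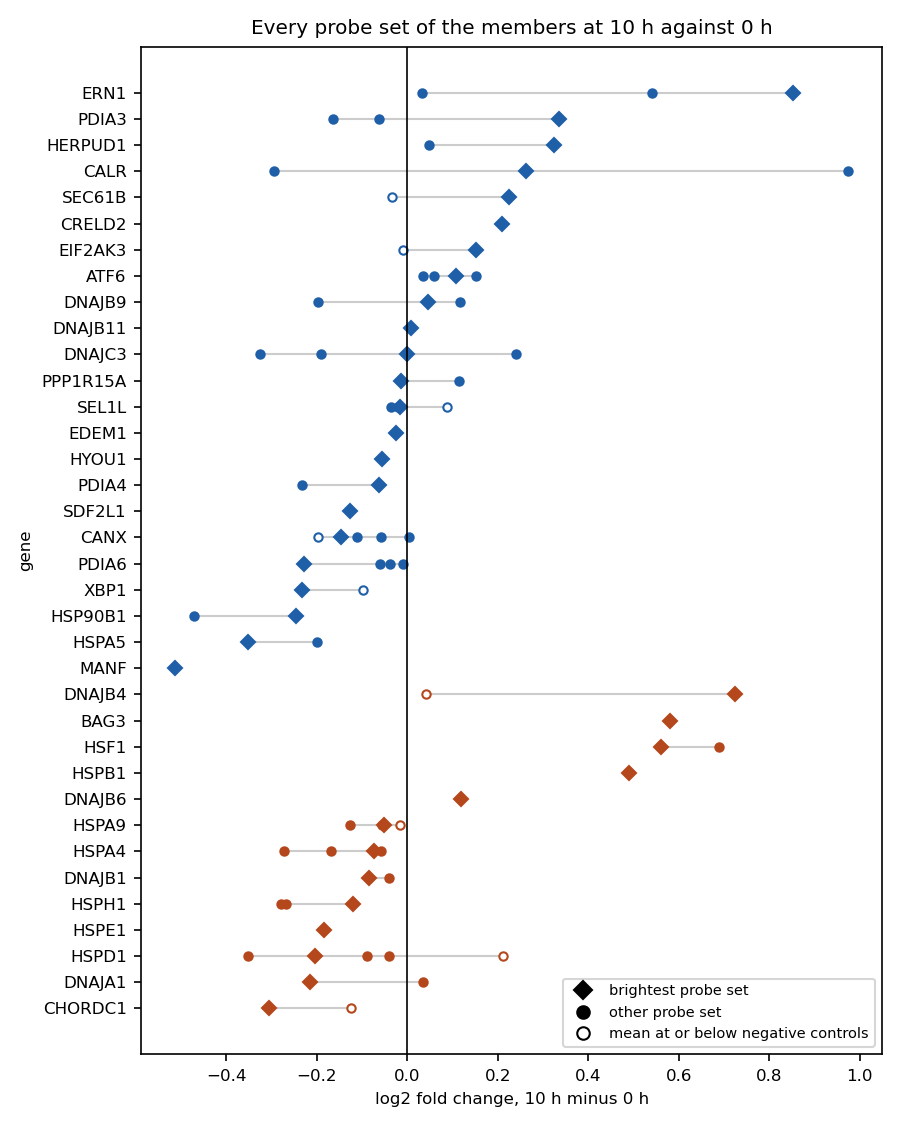
Log2 fold change at 10 h against 0 h (x axis) for each of the 85 probe sets of the 36 members (y axis); diamonds are the brightest set per gene, circles the others, open symbols sets whose mean does not exceed the highest negative control value of 4.73. CALR spans the widest range, from -0.29 to 0.97, and the sets of HSF1 lie together.

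The rest of these pathways was read from 5 lists of other genes, 168 in all, of which 155 were measured. Of the 51 genes of the cytosolic heat shock list 44 were measured. The HSP70 genes HSPA1A, HSPA1B, HSPA6 and HSPA8 were not among the measured genes of these lists or the members, so their expression was not read here. At 2 h against 0 h limma called 0 of the 155, with 1 at an unadjusted p below 0.05, and 106 lay above 0; of all 19775 genes 0.0202% were called, 0.946% had such a p and 11006 lay above 0. For 10 h against 0 h 1 was called, higher, with 10 at an unadjusted p below 0.05, and 78 lay above 0; over all genes these were 0.354%, 3.44% and 8827. For 10 h against 2 h 0 were called, with 7 at an unadjusted p below 0.05, and 69 lay above 0; over all genes these were 0.167%, 3.15% and 8410. The gene called was WFS1, of the stress signalling list, which encodes wolframin, a reticulum membrane protein that restrains ATF6 and is mutated in Wolfram syndrome. WFS1 was at 9.07, 8.95 and 8.66 at 0 h, at 9.19, 9.34 and 8.96 at 2 h, and at 10.02 and 10.14 at 10 h. The 10 h arrays lay above all 6 others. WFS1 rose by 1.19 ± 0.20 log2 units, or 2.28-fold, at 10 h against 0 h (95% interval 0.76 to 1.62; limma adjusted p 0.0074), and its second probe set gave 1.24 (adjusted p 0.0178 over all probe sets). The call was lost without 10 h replicate 1 (1.25, adjusted p 0.0902), without 10 h replicate 2 (1.13, adjusted p 0.213) and without the 3 arrays with the lowest medians (1.27, adjusted p 0.123). The adjusted p over the settings that could be tested ran from 0.000266 to 0.213. The difference between the WFS1 response and that of the sensors was not tested.

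The other 4 lists held 0 called genes. Reticulum folding and quality control (42 genes measured) had a median of 0.06 at 10 h against 0 h, from HSPA13 at -0.44 to OS9, a lectin of degradation, at 0.41. Translocation, signal peptidase and glycosylation (27 genes) had a median of 0.01, from SEC63, a translocation factor, at -0.34 to DAD1, an oligosaccharyltransferase subunit, at 0.47. Stress signalling (25 genes) had a median of -0.03, with EIF2AK2, the double-stranded RNA kinase PKR, lowest at -0.55. Cytosolic heat shock (44 genes) had a median of -0.07, from PFDN2, a prefoldin subunit, at -0.50 to DNAJB2 at 0.54. Mitochondrial folding and proteolysis (17 genes) had a median of -0.02, from TRAP1, the mitochondrial HSP90, at -0.46 to CLPP, a matrix protease subunit, at 0.65 ± 0.18 (limma adjusted p 0.346).

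**Figure D5:**
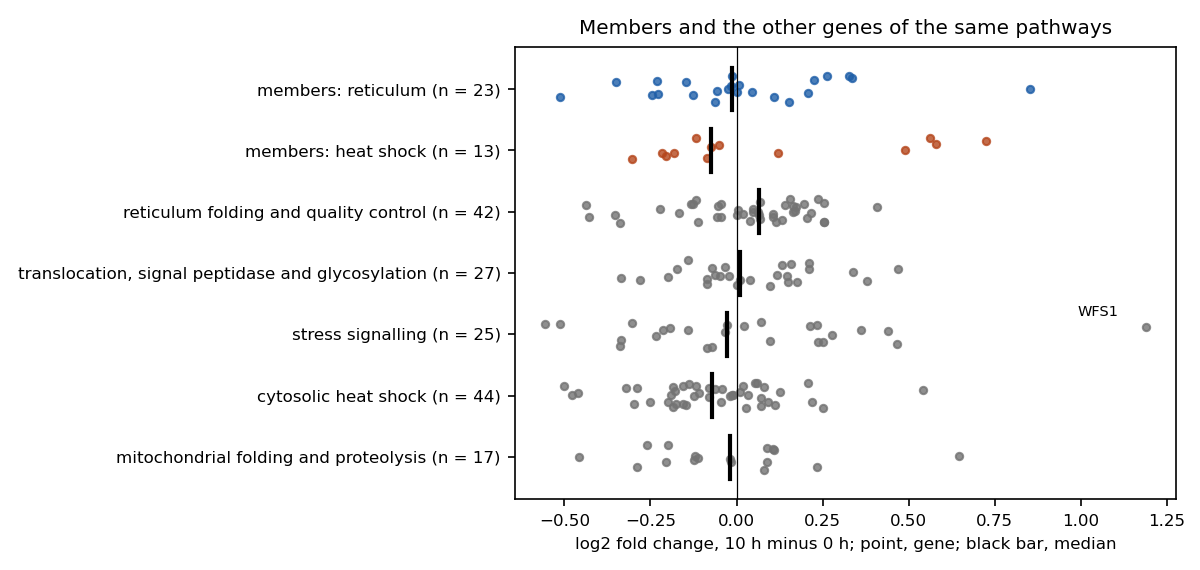
Log2 fold change at 10 h against 0 h (x axis) of each measured gene (points, spread vertically for legibility) in the 2 member classes and the 5 other lists (y axis); black bars are medians. All medians lie close to 0, and WFS1 stands alone at 1.19.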

How the data were processed

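Each of the 8 arrays has log2 values for its probe sets, which the authors deposited and which were made with RMA per the submitters' processing notes. The version of RMA, and whether all arrays went through it together, are not given in the sources used here. Those values were used as they stand. Gene names came from the platform's annotation: 41091 of 54675 carried 1 gene symbol, 1801 carried several and were not used to name a gene. The brightest single-symbol probe set stood for a gene, over 19775 genes, with no filter on dim genes. The choice of the brightest set uses treated arrays too.

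The test was limma 3.58.1 (R 4.3.3) with lmFit, 1 coefficient for each time, and eBayes. A joint fit of the 8 arrays left 5 residual degrees of freedom. It was run after the code was tested on simulated data. P-values are two-sided and were adjusted over all genes by Benjamini-Hochberg with a threshold of 0.05. The number of arrays limits the precision. The 27 Bacillus control probe sets (1.52 to 4.73) marked background. Promoter windows came from RefSeq.

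The members, the lists and the 3 low-median arrays were chosen with earlier results of these data known, so no p-value is given over a list. Values on every array are given for members called, for members whose 0 h and 10 h arrays do not overlap with a difference of at least 0.5, for the 3 highest and 3 lowest of each class at 10 h, and for a fixed panel (HSPA5, HSP90B1, DNAJB9, HERPUD1, XBP1, ATF6, ERN1, EIF2AK3, PPP1R15A, HSF1, HSPD1, HSPH1 and DNAJB1). Other pathway genes are named where called, or as the highest and lowest of their list. CALR, PDIA6, SEC61B and HSPB1 were given on every array after their values were seen. Alternatives changed the probe set per gene, the scaling, the dim-gene filter, the variance model, array weights, the samples fitted, a replicate block and the low-median arrays, and left out each array in turn. A planned search of protein ends was not run, because no protein sequences were used here.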

Additional observations from a re-analysis of the deposited data

How the results depend on the processing

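The count of called members stayed at 0 under all 20 tested alternatives in each comparison. Class medians kept within the spread of their arrays except as follows. Within the 3 arrays with the lowest medians, the reticulum median was 0.27 at 2 h against 0 h and -0.30 at 10 h against 2 h. Leaving out single arrays, the heat shock median ran from -0.15 to 0.074 at 10 h against 0 h, with the high end without 10 h replicate 1. At 10 h against 2 h it ran from -0.22 to 0.11, and was 0.01 without 2 h replicate 1 and 0.11 without 10 h replicate 1. The reticulum median ran from 0.04 to 0.15, from -0.17 to 0.14 and from -0.23 to 0.02 in the 3 comparisons, and the heat shock median at 2 h from -0.05 to 0.15. Of the 36 members, 12 kept their sign in all 21 alternatives at 2 h against 0 h, 14 at 10 h against 0 h and 16 at 10 h against 2 h. With the brightest probe set that has no suffix, TSC22D3 gave -0.107, -0.163 and -0.056 in the 3 comparisons. Same-numbered arrays had correlations from -0.268 to 0.264 in their deviations from the mean of their time. With 2 arrays at 10 h, such values come there in pairs of opposite sign. They therefore cannot settle whether replicate numbers pair the arrays. With a replicate block the heat shock median at 10 h against 0 h was -0.12, that at 10 h against 2 h was -0.22, 0 members were called, and 2 had an unadjusted p below 0.05 (DNAJB4 and ERN1), where array weights gave 3. Over all genes, called counts of 4, 70 and 33 ranged over alternatives from 1 to 26, from 30 to 127 and from 12 to 62, the highest with array weights. Only 2 to 3 arrays a time limit the precision.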
